A study of Mus musculus with 4 samples.

Results

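The genes described here encode the ligands, receptors and secreted binding proteins of the insulin and insulin-like growth factor (IGF) system: Igf1, Igf2, Igf1r, Insr, Igfbp2, Igfbp3, Igfbp4, Igfbp5, Igfbp6 and Igfbp7. They were taken by name, as every probe set of the array that the platform annotation pairs with exactly 1 of these symbols. That gave 23 probe sets for 9 of the 10 genes, out of 28898 such probe sets for 17097 genes. No such probe set was found for Igfbp7, which was not analysed here. The samples were mouse brown adipocytes that carried either a scramble shRNA (a short hairpin RNA, here a control) or a Blnc1 shRNA, directed at a long noncoding RNA of brown fat. All were harvested after 6 days of differentiation, with 2 arrays per group labelled as biological replicates. The sources used here do not give the strain, the age, the origin of the cells or the way the shRNA was delivered. The comparison asks which transcripts differ when Blnc1 is knocked down in differentiated brown adipocytes.

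IGF1 and IGF2 are small secreted hormones that bind the IGF1 receptor, a tyrosine kinase closely related to the insulin receptor. In the extracellular fluid they are carried by IGF binding proteins (IGFBPs), which hold them away from the receptor until a protease cuts the binding protein. In fat cells the insulin receptor drives glucose uptake and lipid synthesis, and precursors of brown fat cells depend on insulin and IGF1 signalling to differentiate.

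Each value is a log2 expression value of 1 probe set on 1 array. A group mean at or below 2.55, the highest reading of the antigenomic control probe sets, was taken as background. Arrays of 1 group correlated at r = 0.994 (scramble) and r = 0.996 (knockdown) over the probe sets (which do not count as replicates). No probe set carries the name Blnc1. A RefSeq gene table (GRCm38.p6, used for names only) lists Blnc1 and C730029A08Rik among the synonyms of Paqr9, and the 3 probe sets under these names moved in different directions. The brighter C730029A08Rik probe set read 6.25 and 6.22 in scramble and 5.53 and 5.22 in knockdown, while the dimmer one read 3.06 and 3.08 against 3.88 and 3.54. That of Paqr9 read 3.82 and 3.29 against 4.49 and 4.28. The sources used here do not say which of them, if any, detects Blnc1, and the knockdown itself was therefore not checked.

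Both IGF ligands, the brightest IGF1 receptor probe set, Igfbp3 and Igfbp6 were higher on the Blnc1 knockdown arrays. The rise of Igfbp6 was 3.69-fold, and the other 4 rose between 1.5-fold and 1.7-fold. In bulk RNA, more cells of a type and more RNA per cell cannot be told apart. With each gene represented by its brightest probe set, 5 of 9 genes passed a limma adjusted p under 0.05 as higher and 0 as lower, and 4 passed in neither direction. For Igf1r the choice of the brightest probe set was not independent of the rise, as described with its values, and 4 of the other 8 genes were called higher. Over all genes tested, 11.4% were higher and 7.18% lower, or 1941 and 1228 genes. That balance moved with the scaling, to 1514 and 1564 genes after quantile normalization and to 2383 and 844 with all array medians made equal. The members' counts were 5 and 0 under both. The brightest probe sets were chosen once, on the deposited values, so that of Igf1r stayed the same. At an unadjusted p under 0.05 in the same limma fit, 6 member genes were higher and 1, Igfbp4, was lower. The median log2 fold change of the 9 genes was 0.58, against -0.04 over all genes. That median is the value of Igf1r itself, whose probe set was chosen in part by its rise. The next lower value, 0.57, was that of Igfbp2, which was not called. The groups did not overlap for 8 of the 9 genes, but that was also so for 62.6% of all genes. No filter on low values was applied, so all 9 were tested.

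**Figure D1:**
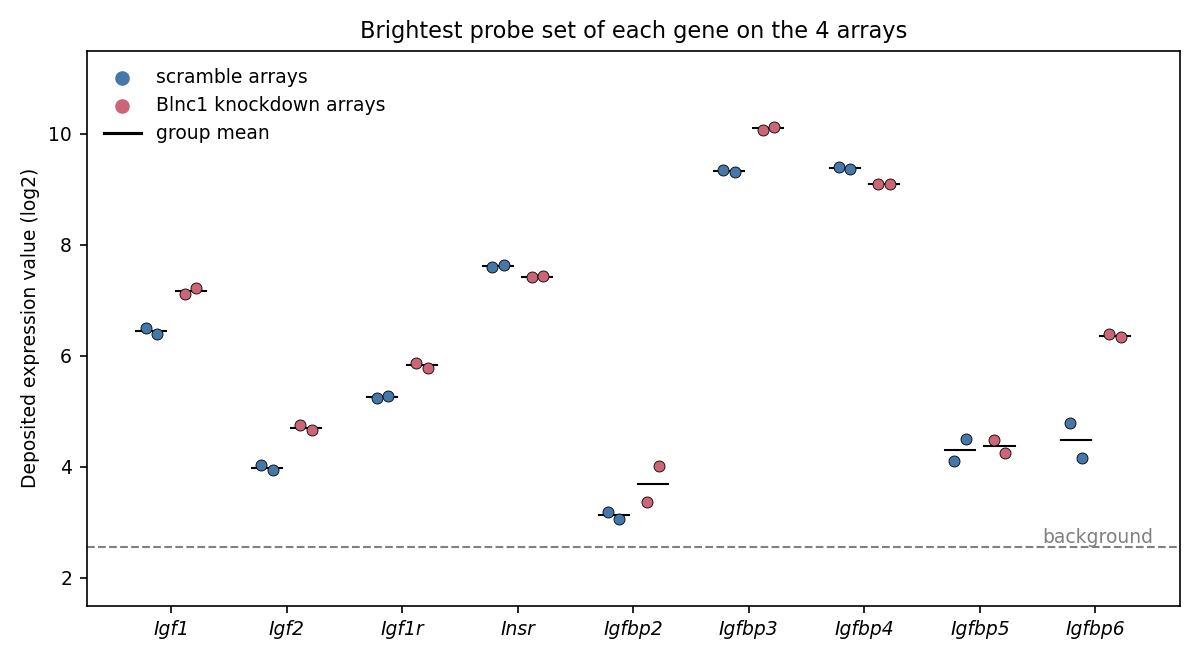
Deposited log2 expression values (vertical axis) of the brightest probe set of each of the 9 genes, with a point per array, blue for scramble and red for Blnc1 knockdown. Short black lines are group means (n = 2) and the dashed line is the background value of 2.55. The knockdown points of Igf1, Igf2, Igf1r, Igfbp3 and Igfbp6 lie above both scramble points, and the groups of Igfbp5 overlap.

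Igf1, the ligand that fat cells and many other tissues make under the control of growth hormone (Entrez Gene 16000), was higher by 3 of its 4 probe sets. The brightest, 1434413, read 6.50 and 6.39 in scramble and 7.11 and 7.23 in knockdown. This was a log2 fold change of 0.73 (SE 0.11; limma adjusted p = 0.00552 over genes). Probe set 1437401 read 6.29 and 6.43 against 7.20 and 7.08, and 1419519 read 4.33 and 4.51 against 5.21 and 5.24. Their log2 fold changes were 0.78 and 0.80, with adjusted p-values of 0.00597 and 0.00558 over all 45037 probe sets. On all 3 probe sets both knockdown arrays lay above both scramble arrays, and groups did not overlap for 62.6% of all genes either.

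The remaining Igf1 probe set, 1452014, belongs to a class that matches several transcripts of a gene. It read 6.04 and 5.68 in scramble and 6.15 and 5.88 in knockdown, so its groups overlapped. Its log2 fold change was 0.16 (95% interval -0.21 to 0.53; adjusted p = 0.541), and its sign turned after quantile normalization (-0.01) and without scramble replicate 2 (-0.02). A limma fit on the per-array difference between probe sets, added after the values had been seen, gave a gap of 0.57 to the brightest one (adjusted p = 0.084). That does not pass the threshold, and 12.5% of 11801 such pairs over all genes did. Without knockdown replicate 2, the adjusted p of the brightest Igf1 probe set was 0.0506.

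Igf2, the ligand known for its imprinted expression and its role in growth before birth (Entrez Gene 16002), had 2 probe sets. The brighter one, 1448152, read 4.03 and 3.94 in scramble and 4.76 and 4.66 in knockdown. Its log2 fold change was 0.73 (SE 0.10; limma adjusted p = 0.00513), or 1.66-fold, and the arrays separated by group. The dimmer one, 1415931, lay close to background, with 2.72 and 2.65 against 3.02 and 2.91. Its difference had the same sign, 0.28 (95% interval 0.04 to 0.53), but did not pass (adjusted p = 0.123). Beside Igf2 on its chromosome lies Ins2, 1 of the mouse insulin genes, which had a log2 fold change of -0.17 (adjusted p = 0.334).

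The IGF1 receptor gene, Igf1r (Entrez Gene 16001), was called higher by its brightest probe set, but its probe sets disagreed. Probe set 1428967 read 5.24 and 5.27 in scramble and 5.88 and 5.79 in knockdown, a log2 fold change of 0.58 (SE 0.10; limma adjusted p = 0.0099). Probe set 1452982 read 5.28 and 5.23 against 4.92 and 5.04, which is lower on both knockdown arrays. Its log2 fold change was -0.28 (95% interval -0.52 to -0.03), not called at an adjusted p of 0.129, and called lower after quantile normalization (-0.41, adjusted p = 0.0429). The 2 log2 fold changes differed by 0.86 (SE 0.15; adjusted p = 0.0143 over the within-gene pairs). Thus the direction reported for the receptor depends on the probe set. Both had a scramble mean of 5.25, so 1428967 was the brightest of the gene only through its higher knockdown values, and its call counts as a rise that also chose the probe set.

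Of the other Igf1r probe sets, 1426565 overlapped between the groups (4.04 and 3.86 against 3.98 and 4.29), and 1452108 was at background in both. Averaged over its 4 probe sets, Igf1r had a log2 fold change of 0.09 (adjusted p = 0.467). The call of the brightest probe set was also lost without either knockdown array, at adjusted p-values of 0.0791 (replicate 1 left out) and 0.0573 (replicate 2 left out). Positions of the probe sets along the transcript were not used here. On the knockdown arrays the control probe sets of Actb showed a larger log2 ratio of 3' to 5' signal, 1.77 and 1.88 against 0.99 and 1.15. Those of Gapdh showed 0.34 and 0.40 against 0.09 and 0.04. Both ratios separated the groups, so this difference cannot be told apart from the knockdown. Its part in the disagreement of probe sets, and in the calls of any member, was not tested.

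Insr, the insulin receptor gene (Entrez Gene 16337), was not called by its brightest probe set. That probe set, 1434446, read 7.61 and 7.64 in scramble and 7.42 and 7.44 in knockdown. The groups did not overlap, but the log2 fold change of -0.19 (SE 0.10, 95% interval -0.42 to 0.04) missed the threshold (limma adjusted p = 0.213). A dim probe set, 1421380, read 2.85 and 2.78 against 2.37 and 2.38, where the knockdown values are at background. It was called lower (log2 fold change -0.44, adjusted p = 0.0305 over probe sets), and lost the call after quantile normalization (0.0546), without scramble replicate 1 (0.0711), and without knockdown replicate 1 or 2 (0.154 and 0.164). The other dim one, 1450225, overlapped between the groups, at 2.85 and 2.59 against 2.37 and 2.62.

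Among the binding proteins Igfbp6, whose product prefers IGF2 over IGF1 (Entrez Gene 16012), rose most. Its single probe set read 4.79 and 4.17 in scramble and 6.39 and 6.34 in knockdown. The scramble arrays differed by more than the knockdown arrays (SD 0.44 against 0.03, n = 2 each), and every knockdown value lay above every scramble value. The log2 fold change was 1.88 (SE 0.19, 95% interval 1.43 to 2.34; limma adjusted p = 0.00163). It was called under all 13 alternatives, with log2 fold changes of 1.57 to 2.19. It was also the only member to pass limma's treat test against a log2 fold change of 0.5 (adjusted p = 0.0102).

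The 250 bases before the RefSeq start of Igfbp6, the member that rose most, are shown beside those of Igfbp5, whose groups overlapped. Each has a single window in the RefSeq table. Both windows are from RefSeq on build GRCm38.p6, chr15:102143936-102144185 on the plus strand for Igfbp6 and chr1:72874866-72875115 on the minus strand for Igfbp5. They are written 5′ to 3′ along the gene, and capitals mark matches to the motifs searched on both strands. These were the TATA box TATAAA, the CCAAT box, the GC box GGGCGG that Sp1 binds, and GTAAACA, the core of a FOXO site.
Igfbp6: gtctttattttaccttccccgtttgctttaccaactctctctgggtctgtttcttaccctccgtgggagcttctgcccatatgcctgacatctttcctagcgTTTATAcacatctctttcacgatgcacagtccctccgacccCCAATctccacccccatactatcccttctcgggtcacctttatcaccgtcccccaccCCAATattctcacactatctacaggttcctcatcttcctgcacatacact
Igfbp5: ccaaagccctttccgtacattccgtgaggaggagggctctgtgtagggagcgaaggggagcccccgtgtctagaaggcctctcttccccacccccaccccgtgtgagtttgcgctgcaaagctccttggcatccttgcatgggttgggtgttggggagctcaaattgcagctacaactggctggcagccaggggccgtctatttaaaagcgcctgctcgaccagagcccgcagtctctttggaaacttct

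In the Igfbp6 window CCAAT lies 107 and 50 bases before the start, and TATAAA lies on the opposite strand 148 bases before it. None of the 4 motifs is in the Igfbp5 window. Of 32851 windows of this length over all genes, 33.8% hold CCAAT, 12.4% TATAAA, 32.7% GGGCGG and 3.17% the FOXO core. Windows were at hand for 8 of the 9 members, 12 windows in all, of which 3 hold CCAAT, 2 TATAAA, 4 the GC box and 0 the FOXO core. The motifs do not overlap one another in these 2 windows. These matches describe the sequence only. G and C make up 49.6% of the Igfbp6 window and 58.8% of the Igfbp5 window, against a median of 52.4% over all windows.

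Igfbp3, the main carrier of IGFs in blood (Entrez Gene 16009), rose 1.7-fold. Its only probe set read 9.36 and 9.31 in scramble and 10.08 and 10.13 in knockdown. The log2 fold change was 0.77 (SE 0.10; limma adjusted p = 0.00347), and lay between 0.74 and 0.83 under every alternative. Its neighbour on the chromosome, Igfbp1, a binding protein gene known for its expression in liver, was at background in both groups.

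Igfbp2 and Igfbp5, which lie next to each other in the genome, were not called. Igfbp2, a binding protein known to be made by precursors of fat cells (Entrez Gene 16008), read 3.19 and 3.06 in scramble and 3.36 and 4.02 in knockdown. Only knockdown replicate 2 stood well above the scramble arrays, so the log2 fold change of 0.57 (95% interval 0.08 to 1.06) had an SE of 0.21 and an adjusted p of 0.105. Without knockdown replicate 1 it was 0.90 (adjusted p = 0.0202), and without replicate 2 it was 0.23 (adjusted p = 0.423). Igfbp5, which binds to extracellular matrix (Entrez Gene 16011), read 4.11 and 4.50 against 4.49 and 4.26. The log2 fold change was 0.07 with a 95% interval of -0.30 to 0.44, so changes of that size in either direction are not excluded by these arrays.

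Igfbp4, an inhibitory binding protein whose hold on IGFs is released by the protease PAPPA (Entrez Gene 16010), had 6 probe sets. On each of them both knockdown arrays lay below both scramble arrays. Groups did not overlap for 62.6% of all genes either, and the 6 probe sets read the same RNA on the same arrays. The brightest, 1437405, read 9.41 and 9.37 in scramble and 9.09 and 9.10 in knockdown. Its log2 fold change of -0.30 (95% interval -0.53 to -0.06) did not pass over genes (limma adjusted p = 0.08). Probe sets 1437406, 1423756 and 1423757 differed by -0.22, -0.30 and -0.29 on the log2 scale and did not pass. Those named 1423757 and 1437406 are of a class in which some probes can match other genes, and 1423756 is of a class in which all probes match several transcripts, at times of different genes.

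The 2 dimmest Igfbp4 probe sets were called lower. Probe set 1421992 read 5.60 and 5.45 in scramble and 4.85 and 5.05 in knockdown (log2 fold change -0.57, adjusted p = 0.0227 over probe sets). Probe set 1421991 read 3.33 and 3.39 against 2.80 and 2.83 (-0.54, adjusted p = 0.0149). Neither differed from the brightest one past the threshold, with gaps of 0.28 and 0.25 log2 units (adjusted p = 0.26 and 0.287). Both lost their call without knockdown replicate 1 (0.14 and 0.0975) or replicate 2 (0.0625 and 0.0943), and 1421992 also without scramble replicate 1 (0.059). With the mean of all 6 probe sets Igfbp4 was lower by -0.37 (adjusted p = 0.0272), and in eBayes with a trend its brightest probe set was called (adjusted p = 0.0011).

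**Figure D2:**
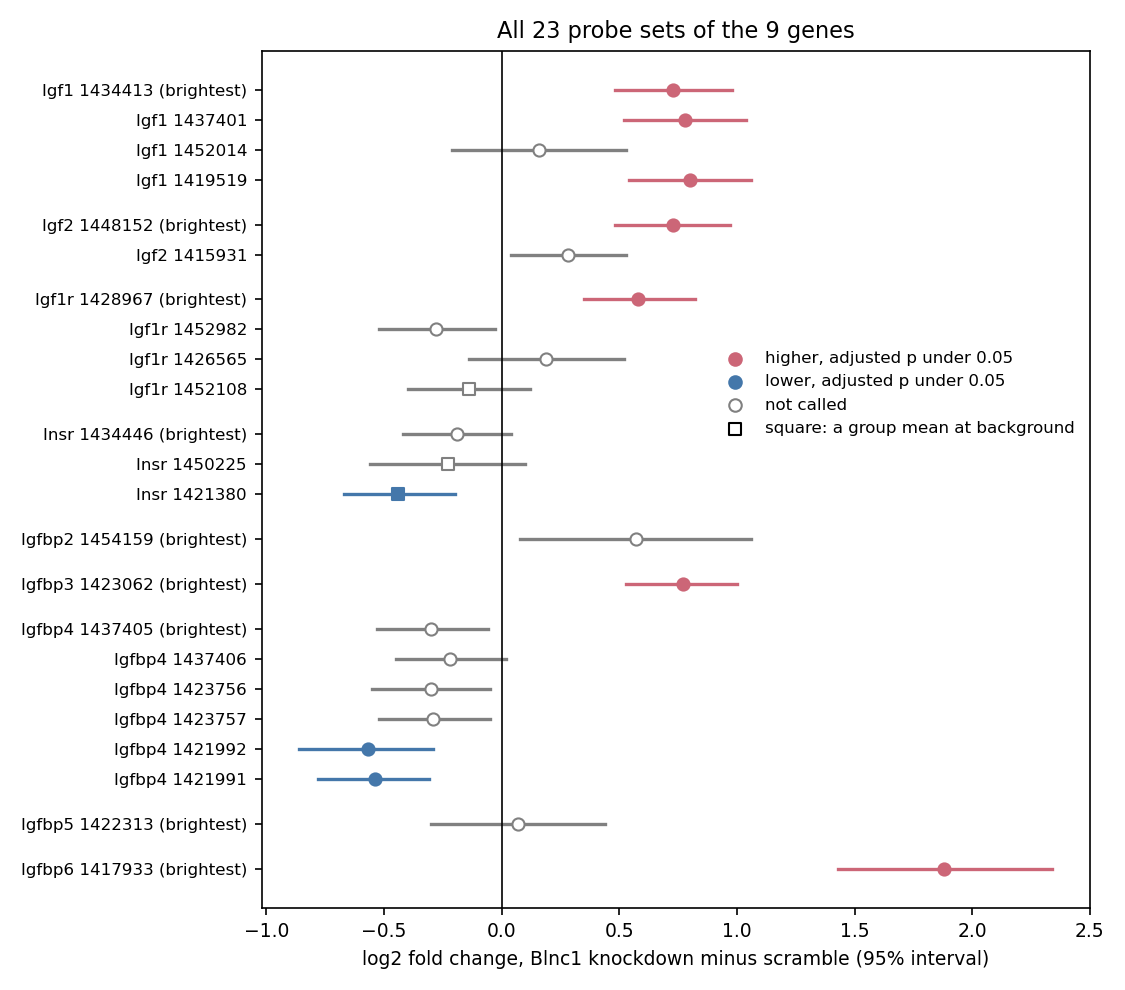
Log2 fold change (Blnc1 knockdown minus scramble, horizontal axis) with its 95% interval for each of the 23 probe sets, grouped by gene. Filled red is called higher and filled blue called lower at an adjusted p under 0.05 over all probe sets, open grey is not called, and squares mark probe sets with a group mean at background. Of the 4 Igf1 probe sets 3 lie between 0.73 and 0.80 and 1 at 0.16, those of Igf1r fall on both sides of 0, and all 6 of Igfbp4 lie below 0.

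Counted by probe set, 7 of the 23 rose, 3 fell and 13 did not pass. The 7 came from 5 genes (Igf1 with 3 and Igf2, Igf1r, Igfbp3 and Igfbp6 with 1 each), and the 3 from Igfbp4 and Insr. Over all 45037 probe sets, 8.73% were higher and 5.38% lower. Of the 14 pairs of a brightest probe set with another of the same member gene, 2 differed past the threshold, both of Igf1r. Over all genes 12.5% of 11801 such pairs did. In the Igf1r pair with 1452108, that probe set was at background in both groups. Probe sets of 1 gene read the same RNA and are not replicates of the knockdown.

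The pattern of Igfbp6 over the 4 arrays was set beside that of every other gene, by the distance between values centred on each gene's mean. The 3 nearest were the histone gene H3c14 (distance 0.184 log2 units), Tnc, which encodes the matrix protein tenascin C (0.192), and Cyp7b1, an enzyme of oxysterol metabolism (0.234). Tnc, for example, read 5.11 and 4.58 in scramble and 6.57 and 6.52 in knockdown. H3c14 has near-identical copies, so its value is uncertain. No member was called lower, so this was done for the rise alone.

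Other genes of the pathway were taken from 4 lists with 72 genes, of which 62 were measured. In all 12 rose, 1 fell and 49 passed in neither direction, against 11.4% higher and 7.18% lower over all genes. The median log2 fold change of the 62 was 0.07. The counts moved with the setting, to 11 higher and 3 lower after quantile normalization, 17 and 1 after median centring, 18 and 5 in eBayes with a trend, and 16 and 1 when the probe sets of a gene were averaged.

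Of 17 genes listed as modulators of the IGF axis, 4 rose, 0 fell and 13 did not pass (median 0.07). Beside proteases, binding proteins and RNA-binding proteins, the list holds Ins2, the receptor genes Insrr and Ghr, and Stat5a and Stat5b. Pappa, the protease that cuts IGFBP4, read 4.86 and 5.09 in scramble and 6.76 and 6.97 in knockdown, a 3.69-fold rise (limma adjusted p = 0.000427). It was called under all alternatives, though the mean of its 3 probe sets changed by 1.07, not by 1.88 as the brightest did. Adam12, a protease known to cut IGFBP3 and IGFBP5, rose 1.85-fold from 7.41 and 7.52 to 8.49 and 8.22 (adjusted p = 0.00497). Htra1, a secreted serine protease, rose 1.42-fold (adjusted p = 0.015, and 0.1 and 0.0906 without knockdown replicates 1 and 2).

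The fourth, Igf2bp3, encodes a protein that binds Igf2 mRNA. It read 3.90 and 4.0 in scramble and 4.69 and 5.53 in knockdown, so its size is inexact (log2 fold change 1.16, SE 0.25; adjusted p = 0.0213, or 0.054 without scramble replicate 1). It was 0.73 without knockdown replicate 2, 1.58 without knockdown replicate 1, and 0.66 with the mean of its probe sets. The inhibitors of PAPPA, Stc1 and Stc2, did not pass (log2 fold changes 0.48 and -0.36, adjusted p = 0.117 and 0.15). The growth hormone receptor gene Ghr had a log2 fold change of 0.34 (adjusted p = 0.0552).

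Inside the cell, 3 of 13 receptor substrates and adaptors were higher, 0 lower and 10 not called (median 0.13). Gab1, a docking protein for PI 3-kinase, read 5.53 on both scramble arrays and 6.17 and 6.21 in knockdown (1.58-fold, adjusted p = 0.00597, or 0.054 without knockdown replicate 2). The mean of its probe sets changed by 0.38, below the 0.66 of the brightest. The adaptor genes Crk and Dok1 were higher by 0.41 and 0.51 (adjusted p = 0.0422 and 0.0286). Crk lost its call after quantile normalization (0.0678), with the replicate number as a block (0.0543), without scramble replicate 1 (0.11), without either knockdown array (0.233 and 0.124) and with adjustment over every probe set (0.0503). Another of its 5 probe sets rose more, from 5.94 and 6.05 to 7.54 and 7.52 (log2 fold change 1.54, adjusted p = 0.000612 over probe sets), and the other 3 were not called (-0.24 to 0.15). Dok1 lost it without scramble replicate 1 (0.0754) and without either knockdown array (0.117 and 0.15). Irs1, the main insulin receptor substrate of fat cells, had a log2 fold change of -0.12 (adjusted p = 0.506).

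Of 18 genes of PI 3-kinase, AKT and mTOR, 3 were higher and 1 was lower, with 14 not called (median 0.04). The 3 higher ones were among the 5 PI 3-kinase subunit genes of the list, a subset not set apart in advance. Over all genes 11.4% were higher. The other 2 subunit genes, Pik3ca and Pik3r2, had log2 fold changes of -0.12 and -0.25 (adjusted p = 0.521 and 0.423). The regulatory subunit gene Pik3r1 read 8.45 and 8.36 in scramble and 9.27 and 9.13 in knockdown (1.74-fold, adjusted p = 0.00416). Log2 fold changes of its probe sets ran from 0.41 (limma adjusted p = 0.0704 over probe sets) to 1.93 (0.000416), and their mean changed by 1.07. Pik3r3, another regulatory subunit, rose 1.89-fold (adjusted p = 0.0101, or 0.0565 without knockdown replicate 1), and the catalytic subunit gene Pik3cb rose 1.74-fold (adjusted p = 0.00613). The lower one was Eif4ebp1, a repressor of translation that mTOR inactivates, from 9.52 and 9.42 to 9.03 and 9.01 (adjusted p = 0.0249). Its call was lost without scramble replicate 1 (0.0658), without either knockdown array (0.124 and 0.146) and with the mean of its probe sets (-0.27, 0.097). Akt1 and Akt2 had log2 fold changes of -0.16 and -0.37 (adjusted p = 0.412 and 0.0568), and Slc2a4, the insulin-responsive glucose transporter gene, 0.26 (adjusted p = 0.135).

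Among 14 inhibitors of insulin signalling, 2 were higher, 0 lower and 12 not called (median 0.11). Grb14, an adaptor that inhibits the insulin receptor kinase, read 4.36 and 4.47 in scramble and 5.39 and 5.52 in knockdown (2.06-fold, adjusted p = 0.00169), and was called under all alternatives. Ptprf, a receptor tyrosine phosphatase, rose 1.84-fold (adjusted p = 0.00303). Its log2 fold change was 0.88, and 0.53 for the mean of its 3 probe sets. Grb10, the close relative of Grb14, had a log2 fold change of 0.29 (adjusted p = 0.0889), and Ptpn1, the phosphatase PTP1B, 0.20 (adjusted p = 0.273).

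**Figure D3:**
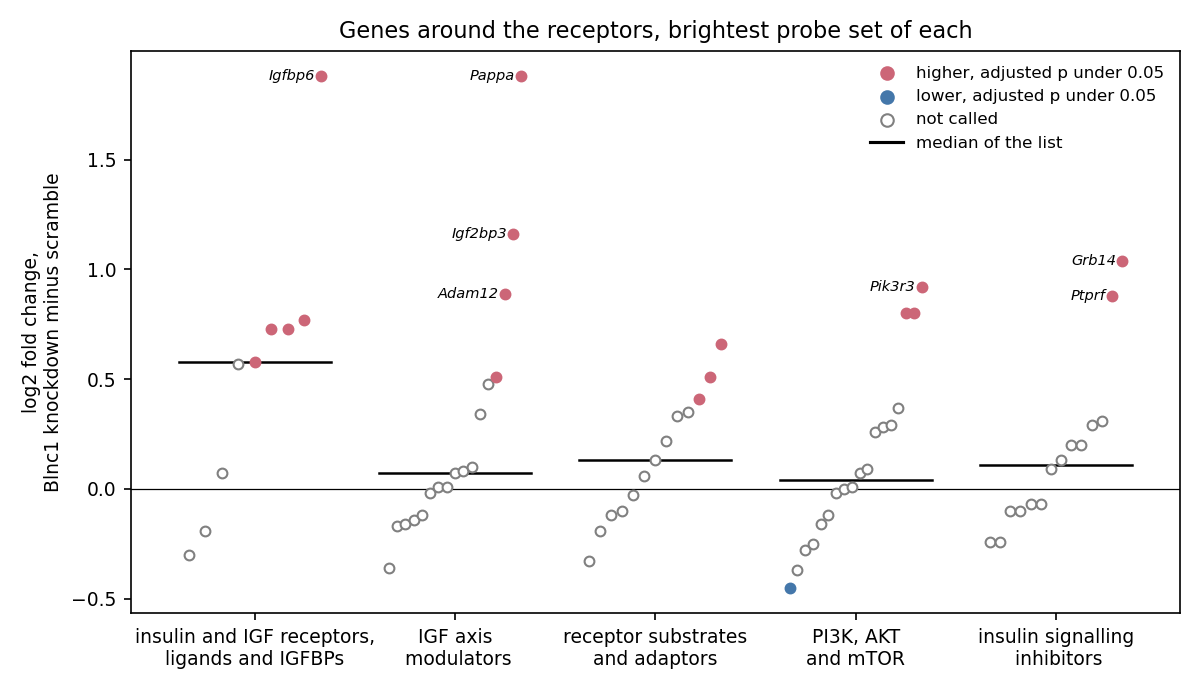
Log2 fold changes (Blnc1 knockdown minus scramble, vertical axis) of the 9 member genes and of the 4 pathway lists, with a point per gene from its brightest probe set. Filled points passed an adjusted p under 0.05 over all genes, red higher and blue lower, open points did not, and black lines are medians. The median of the 9 genes, 0.58, is the value of Igf1r, whose probe set was chosen in part by its rise. The medians of the 4 lists lie between 0.04 and 0.13.

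Markers of the cells moved with the same arrays. Of 7 measured preadipocyte and fibroblast markers, 6 were higher in knockdown, 0 lower and 1 not called, and their mean log2 value was 3.78 and 3.92 in scramble against 4.71 and 4.72 in knockdown. Pdgfra, a receptor gene that marks fat cell precursors, rose from 2.90 and 2.72 to 3.87 and 3.75. The scramble means of the precursor markers Cd34 and Dpp4 were at background. Several members, Igfbp6, Igfbp3 and Igf1 among them, are known to be expressed by fibroblasts and precursors as well as by fat cells. The part of the precursor markers in the members' rises was not tested. Of 5 general fat cell markers 1, Cebpa, was lower (log2 fold change -0.47, adjusted p = 0.0368) and 4 were not called, with means of 10.89 and 10.88 against 10.82 and 10.75. Of 6 brown fat markers 5 were lower and 1, Elovl3, was higher, with means of 7.24 and 7.23 against 6.32 and 6.40.

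Liver is a strong source of Igf1, and liver transcripts were on these arrays. Of 9 hepatocyte markers, 7 were lower in knockdown, 0 higher and 2 at background in both groups, with means of 4.51 and 4.39 in scramble against 3.23 and 2.76 in knockdown. The part of these markers in the Igf1 values was not tested. Macrophage markers, another known source of Igf1, had means of 2.63 and 2.54 against 2.59 and 2.67, with 4 of 7 at background in both groups, and 1, Adgre1, higher. Endothelial markers had means of 2.74 and 2.73 against 2.80 and 2.73, with 2 of 6 at background in both groups, and 1, Tek, higher. Skeletal muscle markers had means of 2.86 and 2.88 against 2.71 and 2.80. Of these 7, 1, Myod1, was lower, from 2.66 and 2.73 to 2.26 and 2.27, where the knockdown values are at background.

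**Figure D4:**
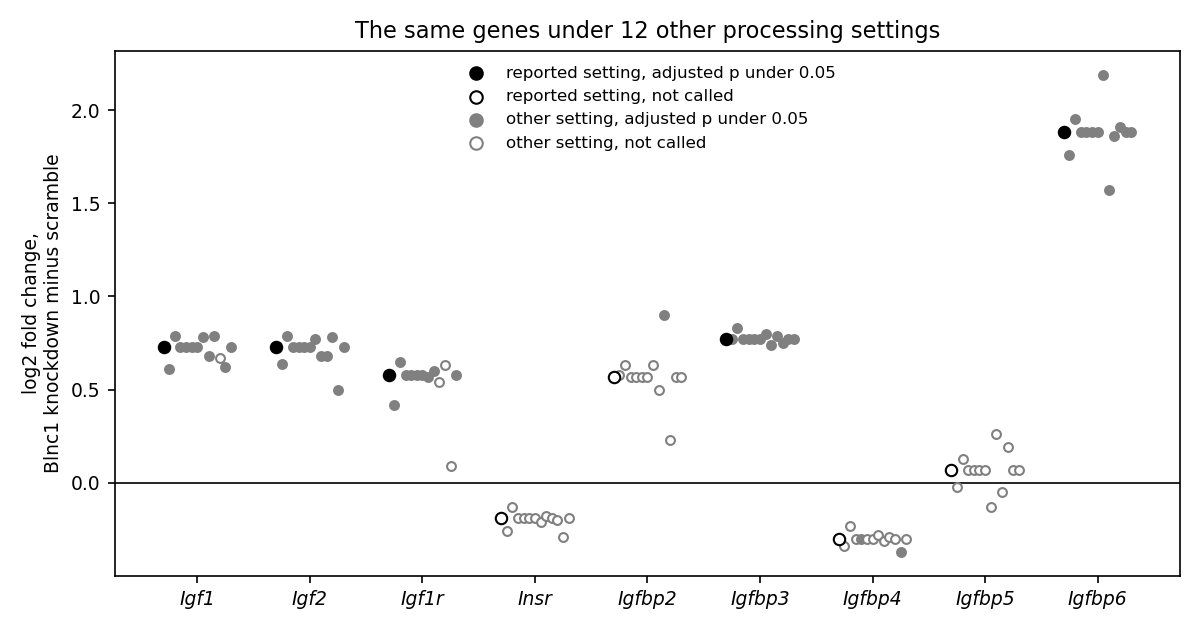
Log2 fold change (Blnc1 knockdown minus scramble, vertical axis) of the 9 genes in the reported setting (black) and in 12 alternatives (grey), filled where the adjusted p was under 0.05. The treat test is left out because it tests another null. Igfbp6, Igfbp3 and Igf2 are filled throughout, Igf1 has 1 open point, and the lowest Igf1r point, at 0.09, is the mean of its probe sets.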

How the data were processed

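Total RNA (250 ng per array, per the labels' protocols) was labelled from the poly(A) tail and hybridised to Affymetrix mouse PM strip arrays. The authors deposited log2 values, a single value for each probe set on each array, from 1.05 to 12.36. Per the submitters' processing notes the tools include affy, RMA and limma, without versions or roles, and the sources used here do not give the normalization. The table holds 45141 probe sets, 104 of them controls. Background is the highest value of antigenomic controls with 3 to 24 G or C bases. The control with 25, which read 5.48 to 5.66, was left out.

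The tests, two-sided, used limma 3.58.1 in R 4.3.3 (lmFit, then eBayes, with group as the only term) on all 45037 non-control probe sets. Benjamini-Hochberg adjustment ran over the 17097 genes, each by its brightest probe set, or over all probe sets where said. There were 2 residual and 4.93 prior degrees of freedom, and the median SE of a log2 fold change was 0.111. With 2 arrays per group the p-values rest only on the spread between these samples, which eBayes pools in part over all probe sets. The number of samples limits the precision. The fit was applied to 5 simulated versions of this comparison, with 17097 genes and 200 changed. It recovered 6.27% of changes of 0.5 log2 units, 86% of those of 1 and 99.4% of those of 2. In the data 1941 genes were called higher and 1228 lower, far more than 200. More changed genes make the adjusted threshold less strict, so these shares do not carry over to the data. The members, lists and tests were chosen with earlier results of these data known. Named genes are all members, up to 4 called genes per pathway list with the largest change, and the 3 genes nearest to the member with the largest rise. Other genes named, such as Irs1, Ghr or Slc2a4, were picked with their values in view. Alternatives tried were quantile normalization, median centring, leaving out the dimmest 40 percent, eBayes with a trend or robust, treat, the mean of all probe sets, adjustment over every probe set, the replicate block, and leaving out each array. Plots were drawn with matplotlib 3.10.9.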

Additional observations from a re-analysis of the deposited data

How the results depend on the processing

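Under quantile normalization, median centring and robust eBayes, 5 member genes were higher and 0 lower, as reported. The same held on leaving out the dimmest genes, with adjustment over every probe set and with the replicate block. In all of these settings the probe sets were those chosen on the deposited values, that of Igf1r among them. The replicate number as a block rested on a number alone, since same-numbered arrays deviated together only weakly (r = 0.0355 across probe sets), and it gave 1953 higher and 1226 lower genes in all. Igfbp4 was called lower, as 1 member gene, in eBayes with a trend and with the mean of all probe sets, and 4 member genes were higher in the latter. The treat test left 1 higher member gene, 1 higher and 0 lower member probe sets, 2 higher and 0 lower pathway genes, and 290 higher and 47 lower genes overall. In eBayes with a trend 7 member probe sets and 5 pathway genes were lower. Lower pathway genes numbered 3 after quantile normalization and 2 without the dimmest genes.

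With 1 array left out, where the lone array is assumed to vary like the others, 3 to 5 member genes were higher and 0 lower. Higher member probe sets numbered 5 to 7 and lower ones 0 to 3, higher pathway genes 8 to 12 and lower ones 0 to 2, and all genes 795 to 1681 higher and 255 to 1168 lower. The lowest counts of higher member genes and of all genes came without knockdown replicate 2. The member genes called were not the same throughout. Without knockdown replicate 1, Igfbp2 (log2 fold change 0.90) was called and Igf1r (0.54) was not. The sign of the uncalled Igfbp5 difference turned after quantile normalization (-0.02) and ranged from -0.13 to 0.26 with an array left out, and that of Igf1 probe set 1452014 turned to -0.01 and ranged from -0.02 to 0.34. The cause was not tested. Closeness to background limits what the dimmest Insr, Igf2 and Igf1r probe sets can show.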
